A study of Mus musculus with 2 samples.

Results

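Neutrophil granule and maturation genes were followed in cultured mouse mast cells given a control siRNA or an siRNA against GATA1, with 1 array for each. The 33 genes were chosen by name from textbook neutrophil biology, with earlier results of these data known. They encode proteins of the primary, secondary and tertiary granules, cytosolic proteins, subunits of the NADPH oxidase, receptors, surface proteins and secreted proteins. They are represented by 40 probes among 55659 probes on the array; Ly6c2 has no probe of its own name. Of the 33 genes, 28 were well above background on both arrays, among 20402 genes measured this way. Fcnb was above background on the GATA1 siRNA array only, and Mmp9, Retnlg and Cd177 were not well above background on either.

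The control group was C57BL/6 bone marrow-derived mast cells transfected with a control siRNA, and the other group was the same kind of culture transfected with GATA1 siRNA, each at 200 pmol. The marrow cells had been kept for 2 weeks with interleukin 3 (10 ng/mL) and for 2 further weeks with interleukin 3 and stem cell factor (10 ng/mL), growth factors that favour mast cells. Material from 2 animals was pooled for each array, and the age and sex of the animals and the time between transfection and harvest were not given in the sources used here. With 1 array a group there is no spread between samples, no test was possible, and no p-value is given. The targeted gene, Gata1, had a scaled signal of 54.1 with control siRNA and 11.6 with its own siRNA, a value 4.68-fold lower. Of the mast cell markers, 13 of 13 were above background on both arrays. So were 9 of 9 eosinophil and 5 of 5 megakaryocyte markers, so this count does not measure the purity of the cultures.

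Neutrophils mature in the marrow by filling granules in sequence. Myeloperoxidase and the serine proteases of the primary (azurophil) granules are made at the promyelocyte stage, lactoferrin and other proteins of the secondary (specific) granules at the myelocyte stage, and gelatinase of the tertiary granules later still. The program is driven by transcription factors of the C/EBP family with PU.1 and Gfi1, and in haematopoiesis PU.1 and GATA1 are known to oppose each other.

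The probes that read these transcripts are oligonucleotides of 60 bases. Those shown here hold a reading frame without a stop codon and cover primary granule genes (Mpo, Prtn3), secondary granule genes (Ltf, Ngp), a cytosolic calcium-binding protein (S100a8) and a stefin (Stfa2l1), so that a reader can see what each value was read from. All are given 5′ to 3′ in lower case.
Mpo: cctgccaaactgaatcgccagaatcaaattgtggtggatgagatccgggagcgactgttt
Prtn3: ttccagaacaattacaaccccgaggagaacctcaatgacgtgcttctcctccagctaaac
Ltf: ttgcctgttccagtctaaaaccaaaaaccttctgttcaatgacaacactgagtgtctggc
Ngp: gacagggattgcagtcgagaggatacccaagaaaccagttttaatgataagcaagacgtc
S100a8: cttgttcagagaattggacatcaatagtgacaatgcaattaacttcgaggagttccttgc
Stfa2l1: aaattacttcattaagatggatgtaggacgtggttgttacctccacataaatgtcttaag
Coordinates are those of the array annotation (mouse build mm9). The Mpo probe lies on the plus strand at chr11:87615121-87615180, that of Ltf at chr9:110942873-110942932 and that of S100a8 at chr3:90473778-90473837. The probe of Prtn3 covers 817 bases of the genome (chr10:79343869-79344685), that of Ngp 549 (chr9:110324266-110324814) and that of Stfa2l1 1759 (chr16:36160118-36161876), so each of these crosses an intron. The Stfa2l1 probe is annotated with transcripts of Stfa2 as well, and its signal may combine them. Between the 4 stefin probes the longest run of shared bases was 9.

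As a group, the neutrophil genes had higher signals with GATA1 siRNA. Each value below is the log2 scaled signal with GATA1 siRNA minus that with control siRNA; a scaled signal is the processed signal divided by the 75th percentile of the array's probes (303.2 scanner units for control siRNA and 340.0 for GATA1 siRNA). Over the 28 measured genes the median difference was 0.55, against 0.01 over all measured genes, and 27 of the 28 lay above 0, against 52.7% of all genes. A size rule of 1.5-fold (0.58 on the log2 scale) took the place of a test. By it 12 of the 28 genes were higher and 0 were lower, while 1.83% of all measured genes were higher and 2.76% lower. At a lower rule of 0.32 on the log2 scale, 23 of the 28 were higher and 0 lower, against 7.3% and 9.51% of all genes. At 2-fold, 2 of the 28 were higher and 0 lower (0.294% and 0.608% of all genes). The filter asked for signal on both arrays, so the 28 are not all of the chosen genes. Because the genes were chosen with earlier results of these data known, these shares are a description only.

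The scanner software gives an error for each signal, and for the difference of a measured gene this error ran from 0.20 to 0.36 with a median of 0.20. By that measure 25 of the 28 differences exceeded their own error and 19 exceeded 2 errors. The same shares over all measured genes are not given here. Over all measured genes the SD of the difference was 0.29, more than the median error, so other genes pass this measure too. Over 243 probes printed 10 times on the array the median SD of the difference between repeated spots was 0.06. These errors describe the arrays, not cultures or animals. In bulk RNA fewer cells of a type and less RNA per cell cannot be told apart. A probe's brightness also depends on its sequence, so the levels below are set against the same probe on the other array and not against other probes.

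**Figure D1:**
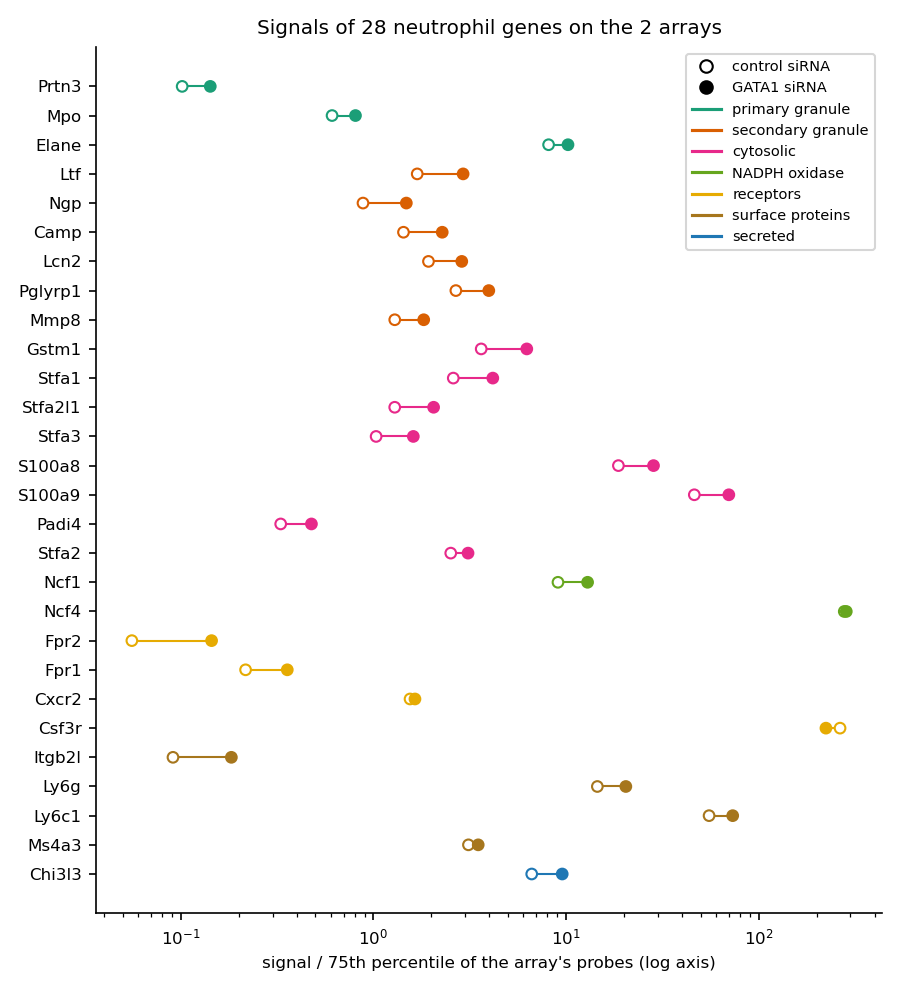
Scaled signals (log axis) of the 28 measured neutrophil genes, with open circles for control siRNA and filled circles for GATA1 siRNA, coloured by class. The filled circle lies to the right for 27 genes, and only Csf3r has it to the left (264.9 against 223.8).

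Primary granule genes were higher by 1.26-fold to 1.40-fold. Elane, the neutrophil elastase, had scaled signals of 8.12 (control siRNA) and 10.2 (GATA1 siRNA), a difference of 0.33 with a software error of 0.20. Prtn3, proteinase 3, was dim at 0.102 and 0.142, and differed by 0.48 with an error of 0.27. Myeloperoxidase was read by a pair of probes. They gave 2.07 and 2.58 (0.32) for the probe at the transcript's 3′ side, and 0.180 and 0.252 (0.49) for the probe printed above. The mean for Mpo was 0.40. The GATA1 siRNA array was the higher one for all 3 genes, and none of the 3 reached 1.5-fold. Ms4a3, a membrane protein of granulocyte and monocyte progenitors that is expressed at the same early stage, stood at 3.12 and 3.50, a difference of 0.17, which is under its error of 0.20.

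Secondary granule genes were higher by 1.41-fold to 1.73-fold. Lactoferrin (Ltf), which binds iron, had scaled signals of 1.69 and 2.92, a difference of 0.79. Only 0.696% of all measured genes had a difference at least as high. Ngp, the neutrophilic granule protein, followed with 0.883 and 1.48 (0.75), and Camp, the cathelicidin antimicrobial peptide, with 0.71 and 0.63 at its probes. The signals of these Camp probes were 2.10 and 3.43 for the first and 0.976 and 1.51 for the second. Lcn2, a lipocalin that withholds iron from bacteria, had 1.93 and 2.88 (0.57). For Pglyrp1, which binds peptidoglycan, the signals were 2.68 and 3.97 (0.57), and for the collagenase Mmp8 they were 1.29 and 1.82 (0.50). All 6 exceeded 2 software errors, and 3 of the 6 (Ltf, Ngp and Camp) were past 1.5-fold.

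The tertiary granule is represented by the gelatinase Mmp9 alone, and it had no measurable level. Its probe is printed 10 times on each array. With control siRNA the spots ran from 5.49 to 11.4 scanner units (mean 7.25 ± 1.73, SD of 10 spots) and 0 of 10 were well above background. With GATA1 siRNA they ran from 8.41 to 18.1 (mean 13.6 ± 3.0, SD of 10 spots), and 4 of 10 were well above background. The ranges overlap, and no fold is given. The 10 spots share a single RNA sample on each array.

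**Figure D2:**
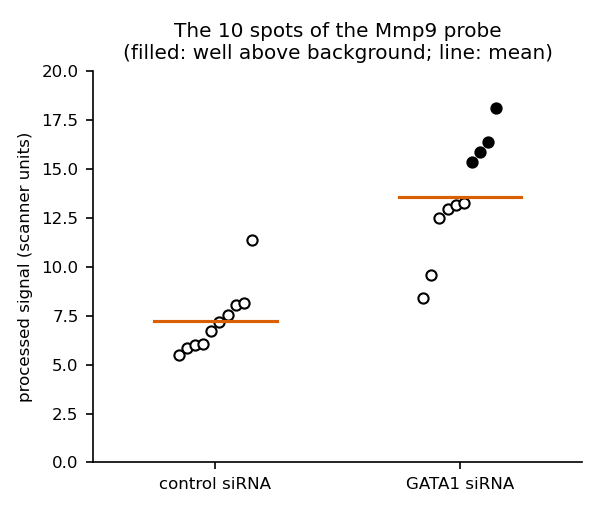
Processed signal of the 10 repeated spots of the Mmp9 probe on each array, in scanner units, with filled points for spots well above background and a line at the mean. The means are 7.25 and 13.6 scanner units, and 4 spots on the GATA1 siRNA array and 0 on the control siRNA array are filled.

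Set side by side, the median difference was 0.40 for the 3 primary and 0.62 for the 6 secondary granule genes. The highest primary gene, Prtn3 at 0.48, stood next to the lowest secondary gene, Mmp8 at 0.50, and these neighbours differ by less than their errors. The gap between the medians, 0.22, is about the size of the software error of a single gene. Of 11 other ways of processing, those that shift all genes alike or leave these probes as they are could not change it. Under the others it ran from 0.18 to 0.34. These were normexp background correction, quantile normalization, loess, a limit of 50 on signals and the brightest probe. In 2 of the 11, quantile normalization and loess, the ranges of both classes overlapped, since Prtn3 reached 0.54 and 0.57. The difference between the classes was not tested, as genes of 1 array pair are not replicates.

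**Figure D3:**
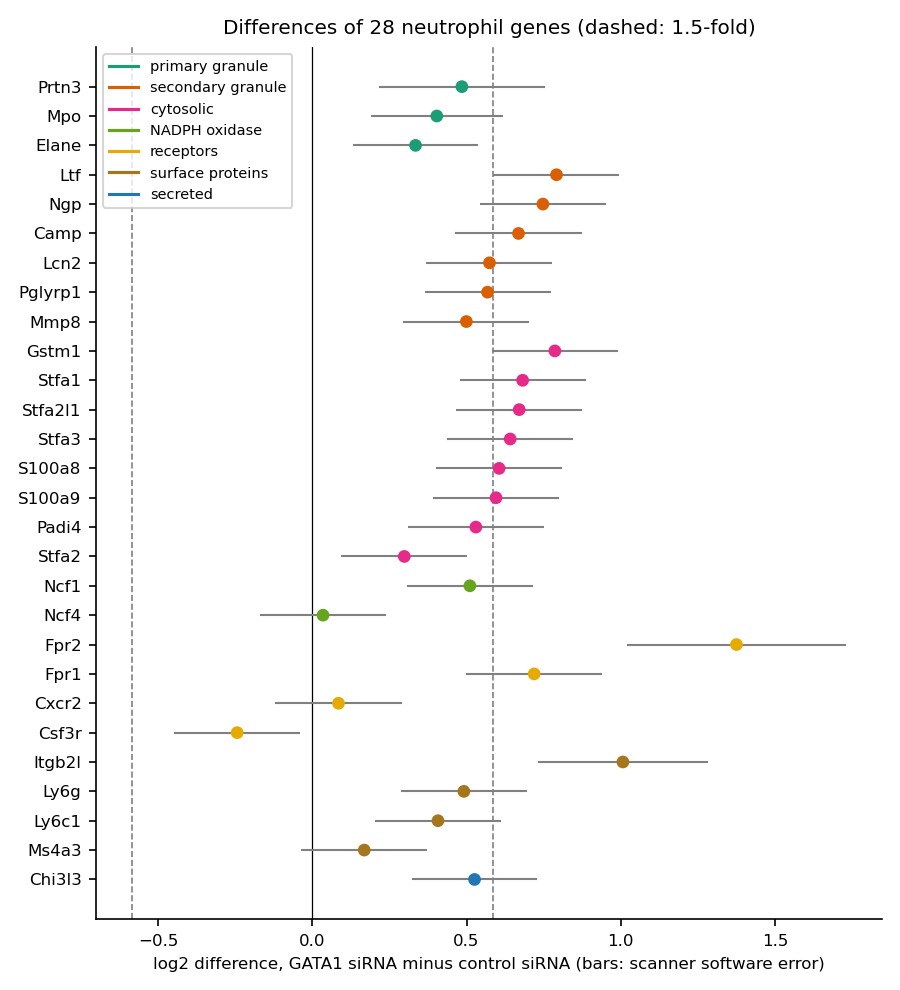
Log2 difference, GATA1 siRNA minus control siRNA, of the 28 measured neutrophil genes by class; bars are the scanner software's error and dashed lines mark 1.5-fold. Secondary granule genes lie between 0.50 and 0.79 and primary granule genes between 0.33 and 0.48, and Csf3r is the only gene below 0.

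Cytosolic proteins of neutrophils formed the class with most genes past 1.5-fold, 6 of 8, with a median of 0.62. S100a8 and S100a9 encode the partners of calprotectin, which sequesters zinc and manganese. S100a8 had 18.7 and 28.5, a difference of 0.61, and S100a9 had 46.4 and 70.1, a difference of 0.60. Both genes of the pair were higher by about the same amount. Gstm1, a glutathione transferase, differed by 0.84 and 0.73 at its probes (2.07 against 3.71, and 6.35 against 10.5); the array annotation places the latter probe on chromosome 5, whereas the other lies on chromosome 3.

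Stefins are small inhibitors of cysteine proteases, and mice carry a cluster of them on chromosome 16. Stfa1 had 2.60 and 4.17 (0.68), Stfa2l1 had 1.29 and 2.05 (0.67), and Stfa3 had 1.03 and 1.61 (0.64). Stfa2 was the exception, with 2.52 and 3.1 and a difference of 0.30. These genes are near-copies, and cross-hybridisation between them was not tested. Other genes of the same cluster that are not among the 33 also stood above 0, with Cstdc5 at 0.63, Cstdc4 at 0.62, Csta2 at 0.56 and Csta3 at 0.37. Padi4, the arginine deiminase that acts on histones in extracellular traps, depended on the probe: 0.739 against 1.42 (GATA1 siRNA the higher, 0.94) at 1 probe and 0.148 against 0.160 (0.12) at the other.

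Of the oxidase subunits, the organizer Ncf1 had 9.09 and 12.9, a difference of 0.51, whereas Ncf4, which binds phosphoinositides, had 278.6 and 285.4, a difference of 0.03. Further genes of the enzyme had a median of 0.25, with Cybb at 0.41 (0.0571 against 0.0757, error 0.37) and Cyba at 0.28. Rac1 (-0.20) and Rac2 (-0.07) were below 0, and 0 of 5 were past 1.5-fold.

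Receptors went in different directions. Fpr1 and Fpr2, receptors for formylated bacterial peptides, had 0.217 and 0.357 (0.72), and 0.0557 and 0.144 (1.38). Both were dim: the Fpr2 spot gave 16.9 and 49.1 scanner units, and its difference was 0.36 under another background correction (normexp), where that of Fpr1 was 0.39. That correction was run with an added offset of 50 scanner units, which by itself shrinks the differences of dim probes. Cxcr2, the receptor for neutrophil-attracting chemokines, had 1.55 and 1.64, a difference of 0.09 that is under its error. Csf3r, the receptor for granulocyte colony-stimulating factor, had 264.9 and 223.8, and was the only gene of the group that was lower (-0.24, error 0.20). The spots of Csf3r and of Stfa1 each have at least 2 spots nearby that differ 4-fold or more between the arrays. Without Csf3r the receptor median was 0.72 in place of 0.40.

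Among surface proteins, Ly6g, the antigen used to identify mouse neutrophils, had 14.6 and 20.5, a difference of 0.49. Ly6c1, also found on monocytes, had 9.92 and 13.8 at 1 probe and 308.7 and 390.0 at the other, with differences of 0.48 and 0.34. The annotation of these probes lists Ly6c1 transcripts only, but Ly6c1 and Ly6c2 are close copies. Itgb2l, an integrin chain, had 0.0911 and 0.183 (1.01) at the single probe of 3 that was above background; when probes below background were counted its mean was -0.10. Cd177 was not well above background, at 3.98 and 8.0 scanner units. Among secreted proteins, Chi3l3, a chitinase-like protein, had 6.64 and 9.56, a difference of 0.53. Fcnb, a ficolin of the lectin pathway, was above background with GATA1 siRNA at 1 of 2 probes. That probe gave 0.0471 with control siRNA and 0.0614 with GATA1 siRNA, a difference of 0.38 that is under its error of 0.43. Set against the lowest control siRNA signal counted as above background (0.0500), the fold was 1.23, which is not a lower limit given that error. The other probe was above background on neither array. Retnlg, a resistin-like protein of mature neutrophils, gave 7.25 and 2.87 scanner units and was not well above background.

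**Figure D4:**
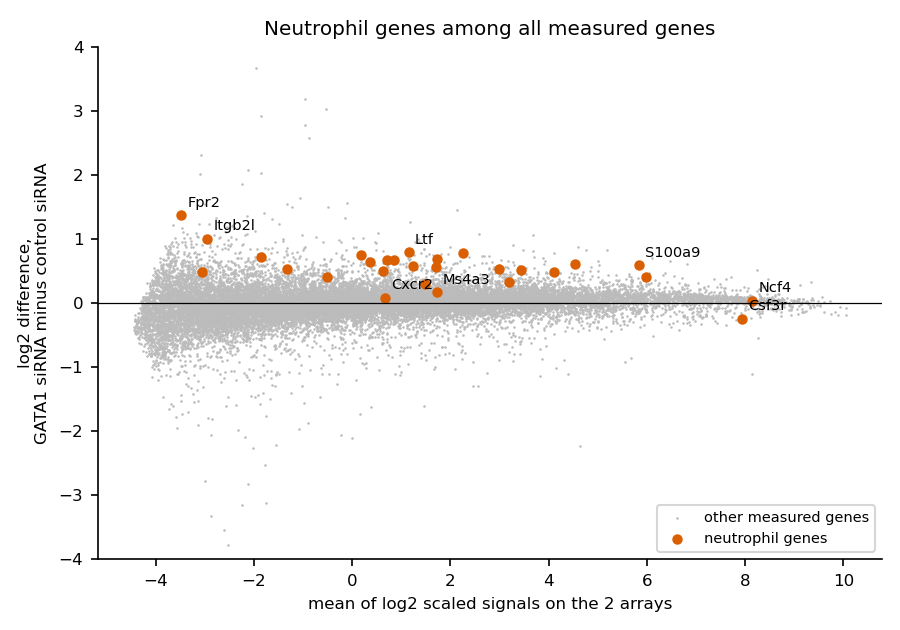
Difference against mean log2 scaled signal for all 20402 measured genes (grey) and the 28 neutrophil genes (orange), 1 point per gene. Of the 28 orange points 27 lie above 0, with Ncf4 (0.03), Cxcr2 (0.09) and Ms4a3 (0.17) nearest to it and Csf3r (-0.24) below.

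A stricter limit on dim signals left the pattern in place. Among genes with processed signals of at least 50 on both arrays, 1.17% were at least 1.5-fold higher, and so were 11 of the 25 neutrophil genes that met this limit. Their median was 0.57. The 2 highest differences, Fpr2 and Itgb2l, both belong to dim probes and are outside these 25.

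Other genes of the pathway were taken from lists of granule, oxidase, transcription factor and effector genes. Of 7 further primary granule genes 0 were past 1.5-fold, with a median of 0.17. Ctsg, the cathepsin G protease that mast cells also store, was lower (103.0 and 79.9; -0.37), and the glucuronidase Gusb (0.26, with a probe at a spot whose neighbours differ 4-fold) and the peptidase Ctsc (0.25) were the next largest. Further secondary and tertiary granule genes had a median of 0.28 over 12 genes, all above 0, with 1 past 1.5-fold. That gene was Adam8, a metalloprotease (90.6 and 138.8; 0.62), followed by the integrin chain Itgb2 (0.48). Effector and surface genes had a median of 0.43 over 14, with 6 past 1.5-fold, among them Il1r2, the interleukin 1 decoy receptor (1.45, at a spot with neighbours that differ 4-fold), and Ifitm6 (0.80). Granulocyte transcription factors had a median of 0.21 over 10 and 0 past 1.5-fold, with Irf8 at 0.42, Klf5 at 0.38 and Cebpe, which secondary granule genes require, at 0.28. PU.1 (Spi1) stood at 0.19, and 3 of the 10 were below 0, Runx1 at -0.17, Gfi1 at -0.09 and Cebpa at -0.01.

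Markers of other cell types were read on the same arrays. Macrophage and monocyte markers had a median of 0.28 over 15 of 17 genes, with 5 past 1.5-fold higher and 1 lower. Their summed scaled signal was 20.6 with control siRNA and 31.9 with GATA1 siRNA. The sum over the neutrophil genes was 729.4 and 774.1. Such sums follow the brightest probes, which for the neutrophil genes include Ncf4 and Csf3r. Ms4a7 (1.09) and Cd68 (1.07) were the highest and Cx3cr1 (-0.94) the lowest, and C1qa was not measured on both arrays. Mast cell markers summed to 3078 and 2844, with a median of -0.07 and 2 of 13 at least 1.5-fold lower, Mcpt4 (-0.88) and Mrgprb1 (-0.65). Eosinophil markers, which belong to another granulocyte, had a median of -0.48 over 9. Of these, 2 were at least 1.5-fold lower, Epx (-0.85) and Prg3 (-0.71), and 1 was higher, Siglecf (0.60). Siglecf was dim, at 0.0624 with control siRNA and 0.0946 with GATA1 siRNA, and its error was 0.35. Basophil markers had a median of 0.24 over 3, with Mcpt8 at 0.29. Markers of granulocyte and monocyte progenitors, 4 of which are also neutrophil genes here, had a median of 0.33 over 9, with 0 past 1.5-fold. Erythroid markers had a median of 0.64 over 4 genes, with Hba-a2 at 1.0, while Alas2 was not measured on both arrays. Megakaryocyte markers had a median of -0.57 over 5, with 2 at least 1.5-fold lower, Gp1ba (-1.02) and Ppbp (-0.74), and 2 above 0, Itga2b (0.25) and Pf4 (0.05). Lymphocyte markers had a median of -0.14 over 3, with Cd8a and Ncr1 not measured. The part of these cells in the neutrophil values was not tested.

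**Figure D5:**
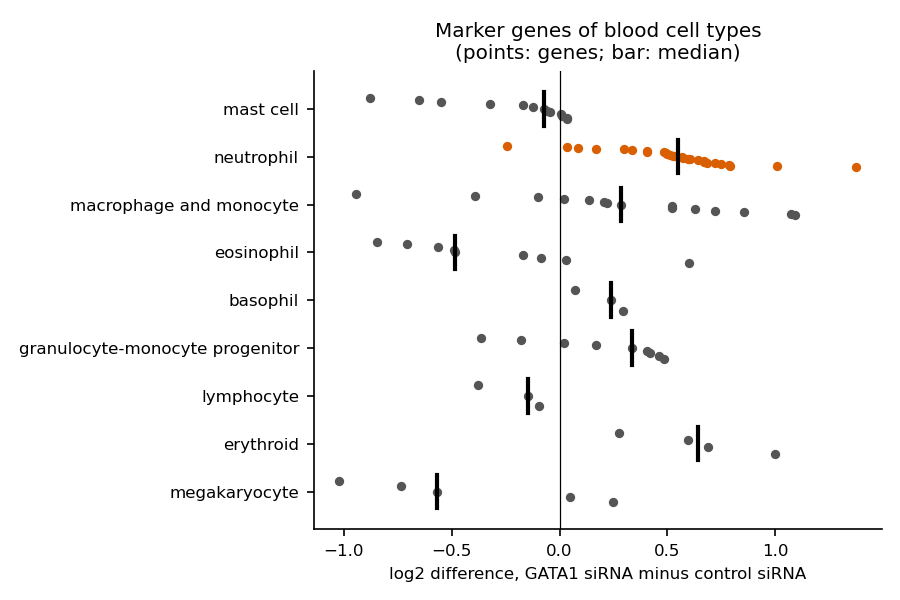
Log2 difference, GATA1 siRNA minus control siRNA, of marker genes of 9 blood cell types (1 point per measured gene, bar at the median). Neutrophil genes (orange) have a median of 0.55, macrophage and monocyte genes 0.28, mast cell genes -0.07 and eosinophil genes -0.48. The highest median is that of the 4 measured erythroid genes, 0.64.

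Several of the genes lie close together in the genome. The probes of Prtn3 and Elane are 6216 bp apart on chromosome 10, those of Fpr1 and Fpr2 16871 bp on chromosome 17, and those of S100a8 and S100a9 22735 bp on chromosome 3. The 90 other measured genes with a probe within 100000 bp of a measured neutrophil gene had a median difference of 0.04, with 6 past 1.5-fold higher and 1 lower, against 1.83% and 2.76% of all genes. Of the 6 higher, Cstdc4 (0.62), Cstdc5 (0.63), Gstm3 (0.66) and Ly6e (0.83) belong to the families of the genes they lie near, and the others were Oosp1 (0.62) and an unnamed transcript of the stefin cluster (0.66). The lower one was Epx, the eosinophil peroxidase, near Mpo (-0.85 against 0.40), and the lactoperoxidase gene Lpo beside them stood at -0.13. Next to S100a8 and S100a9, S100a6 stood at 0.08, S100a3 at -0.05 and S100a4 at 0.52. Near both Elane and Prtn3, the neighbours ran from Med16 at -0.06 to Kiss1r at 0.33. These neighbours were named after their values were seen.

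Because most of these genes were higher together, their promoters were read for the motifs of the factors named above. RefSeq start sites (assembly GRCm38.p6) were found for 31 of the 33 genes, with 35 promoters of 250 bases before the start. Motifs were searched on both strands: TTGCNNAA for C/EBP, GAGGAA for PU.1, and for GATA the words AGATAA and AGATAG together with the words TGATAA and also TGATAG; no hits of different motifs overlapped in the promoters searched. The C/EBP letters occurred in 9 of 35 promoters (25.7%), against 9.56% of the 32851 mouse promoters of the same length. For PU.1 it was 23 of 35 (65.7%) against 23.3%, and for GATA 11 of 35 (31.4%) against 26.5%. Some genes have 2 overlapping promoters among the 35. The Ly6 genes and the stefins are families of close copies, and all of their promoters here hold the PU.1 letters. Their matches are therefore not separate from each other, by promoter or by gene. By gene the letters occurred in 9 (C/EBP), 20 (PU.1) and 11 (GATA) of 31, genes that were not measured included. A match is a description of letters and not a binding site, and the genes were picked as neutrophil genes, so these shares carry no test. The promoters of 4 secondary and 2 primary granule genes are shown, among them secondary genes with and without the C/EBP letters. They are printed 5′ to 3′ in the direction of the gene, with matches to any of the motifs in capitals.
Ltf: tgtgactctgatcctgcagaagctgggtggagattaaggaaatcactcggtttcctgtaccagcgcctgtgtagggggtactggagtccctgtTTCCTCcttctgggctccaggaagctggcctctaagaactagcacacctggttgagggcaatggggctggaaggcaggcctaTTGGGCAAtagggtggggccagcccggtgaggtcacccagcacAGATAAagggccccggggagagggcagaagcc
Ngp: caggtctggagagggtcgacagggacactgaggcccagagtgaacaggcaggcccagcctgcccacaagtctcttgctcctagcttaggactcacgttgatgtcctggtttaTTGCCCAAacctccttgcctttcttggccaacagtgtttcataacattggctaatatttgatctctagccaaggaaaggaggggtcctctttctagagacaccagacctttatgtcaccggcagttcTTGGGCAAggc
Lcn2: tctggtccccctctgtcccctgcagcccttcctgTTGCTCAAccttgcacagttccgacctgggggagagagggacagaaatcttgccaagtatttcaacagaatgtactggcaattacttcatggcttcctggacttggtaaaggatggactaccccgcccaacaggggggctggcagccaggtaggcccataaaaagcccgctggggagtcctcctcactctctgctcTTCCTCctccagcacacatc
Camp: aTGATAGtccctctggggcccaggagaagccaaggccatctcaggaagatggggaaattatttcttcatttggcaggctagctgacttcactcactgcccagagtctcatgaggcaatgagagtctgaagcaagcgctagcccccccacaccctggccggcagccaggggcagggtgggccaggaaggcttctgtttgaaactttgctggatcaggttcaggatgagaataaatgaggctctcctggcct
Elane: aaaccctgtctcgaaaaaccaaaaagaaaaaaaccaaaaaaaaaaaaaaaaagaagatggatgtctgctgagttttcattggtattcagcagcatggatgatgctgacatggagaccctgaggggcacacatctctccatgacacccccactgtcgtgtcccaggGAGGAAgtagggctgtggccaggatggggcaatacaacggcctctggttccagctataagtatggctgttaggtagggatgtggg
Prtn3: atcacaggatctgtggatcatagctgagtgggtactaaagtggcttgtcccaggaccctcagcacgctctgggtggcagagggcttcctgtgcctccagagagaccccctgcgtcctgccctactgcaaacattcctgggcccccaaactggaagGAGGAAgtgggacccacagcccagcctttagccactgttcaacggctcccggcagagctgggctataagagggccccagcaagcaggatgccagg
The Ltf promoter (chr9:111019042-111019291, plus strand) holds a C/EBP match that begins 75 bases before the start, a GATA match at 32 bases and a PU.1 match. Ngp (chr9:110419558-110419807, plus strand) holds 2 C/EBP matches, the nearer at 11 bases, and Lcn2 (chr2:32387740-32387989, minus strand) holds a C/EBP match at 216 bases and a PU.1 match. Camp (chr9:109849457-109849706, minus strand) holds 1 GATA match at 249 bases and 0 of the other motifs. Elane (chr10:79886062-79886311) and Prtn3 (chr10:79879417-79879666), both on the plus strand, each hold a single PU.1 match and 0 C/EBP or GATA matches in this window. Of the 6 secondary granule genes, Ltf, Ngp, Lcn2 and Mmp8 hold the C/EBP letters, and Camp and Pglyrp1 do not. None of the 3 primary granule genes does. Within the class, Camp (0.67) lacks them and Mmp8 (0.50), the lowest, has them. These values differ by less than their errors of 0.20, and a link between the letters and the differences was not tested.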

How the data were processed

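Spot intensity values were deposited by the authors as scanner files, 1 per array, made with Agilent Feature Extraction 10.7.3.1 (array design 028005, annotation mm9), per the file headers; processed signals are background-subtracted and detrended within the array, with surrogate values for dim spots. A deposited table of normalized intensity equals the processed signal divided by each array's median over its 59305 spots; how the authors made it is not given in the sources used here. Spots that the software marks as outliers (234) were left out, repeated spots were averaged as log2 values, and each array was divided by its 75th percentile. A probe was measured when at least 0.5 of its spots were well above background on both arrays and none was saturated; genes with several measured probes were averaged over them. Of the spots, 53.3% (control siRNA) and 55.7% (GATA1 siRNA) were well above background, and 0 were saturated. The number of arrays limits the precision. For a gene above background on 1 array, the fold uses the higher of the lowest signal well above background and the probe's own signal. Probes outside the 33 genes were named by accession (27184), symbol (3580) or synonym (565) from a RefSeq table (GRCm38.p6). The other 24290 kept the name in the scanner file. The 20402 measured genes therefore include entries known only by a probe name, a transcript name or a genomic position, and so do the shares of all genes. All 33 genes were named, with values for the 32 that have a probe, and up to 3 genes with the largest absolute difference from each other list. Cyba, Rac1, Rac2, the transcription factors and megakaryocyte markers beyond these, genes of the stefin cluster and neighbours were chosen after their values were seen. Some genes of the other lists are not reported here by name. The members and lists were chosen with earlier results of these data known. Alternatives used R 4.3.3 with limma 3.58.1; other steps used Python 3.11.15.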

Additional observations from a re-analysis of the deposited data

How the results depend on the processing

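The median over the neutrophil genes kept its sign under all 11 alternatives run, from 0.48 with normexp to 0.61 with the authors' normalized table, where the median of all genes was 0.07. The count past 1.5-fold higher ran from 8 with normexp (0.544% of all genes) to 16 with the authors' table (2.50%) of 28; it was 23 by the lower rule (0.32 on the log2 scale) and 2 by a 2-fold rule. With no filter on dim probes 14 of 32 genes were at least 1.5-fold higher (5.15% of all genes) and 1, Retnlg, lower (7.91%). The offset of 50 added in normexp shrinks the differences of dim probes. With normexp the class medians were 0.24 for primary granules, 0.23 for receptors and 0.37 for surface proteins. With the authors' table they were 0.46, 0.46 and 0.51, and 0.68 for secondary granules, 0.68 for cytosolic proteins, 0.33 for the oxidase and 0.59 for secreted proteins. The receptor median was 0.085 with signals of at least 50 and 0.72 without spots near others that differ 4-fold, and the primary median 0.33 with the brightest probe. Itgb2l turned to -0.10 with dim probes counted; Ncf4 was -0.0043 with loess. Of single-gene values under alternatives, 296 kept their place, 6 moved by more than the software error and 1 reversed. Counting Pglyrp1 as tertiary gave a secondary median of 0.67. A slide block could not be fitted, since both arrays lie on 1 slide. No paired analysis was possible because each group is 1 array.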
